A study of Mus musculus with 6 samples.

Results

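The genes described here are those of the inhibin, activin and anti-Müllerian hormone (AMH) system with its follistatin antagonists. They are the 10 rows of the raw count table that carry the symbols Inha, Inhba, Inhbb, Amh, Amhr2, Acvr1b, Acvr2a, Acvr2b, Fst and Fstl3, out of 54100 genes in all. The libraries came from cryosections of mouse testis, 3 of them wild-type (WT) and 3 carrying an H3t deletion. H3t is a testis variant of histone H3. The labels state no strain, age or zygosity, and each library is taken as 1 mouse only as far as the number in its title goes. The series is about Leydig cells, which lie between the tubules and make testosterone, in testes whose spermatogenesis is disrupted, and the comparison asked how hormone and receptor genes of this system differed between these testes.

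Inhibins and activins are dimers built from shared subunits. The alpha subunit, encoded by Inha, pairs with a beta subunit to give inhibin, whereas beta subunits paired with each other give activin, which binds the type 2 receptors Acvr2a and Acvr2b and recruits the type 1 receptor Acvr1b to activate SMAD proteins. Inhibin B from Sertoli cells, the supporting cells of the tubules, lowers follicle-stimulating hormone secretion by the pituitary, and Leydig cells also make the alpha subunit. AMH is a product of fetal and immature Sertoli cells that falls to low levels as androgen action begins at puberty, and it signals through its own type 2 receptor, Amhr2, on Sertoli and Leydig cells. Follistatin (Fst) and the follistatin-like protein Fstl3 bind activin and keep it from its receptors.

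Totals were 8037826 to 10702930 counts per library, and 1 count was worth 0.0904 to 0.156 CPM (counts per 1000000 counts) after scaling by the trimmed mean of M values (TMM). H3f4, the current symbol of H3t, had 356 to 571 counts in the WT libraries and 0 in each deletion library, which is at least 638-fold lower with a floor of 3 counts for the deletion group as a whole. By edgeR's quasi-likelihood test at a false discovery rate of 0.05, the deletion was higher for 38.4% and lower for 46.1% of the 17038 genes that could be tested, and the groups did not overlap for 85.9%. The summed level of a Sertoli list of 24 genes (such as Sox9, Wt1, Clu and Rhox5) was 1320 to 1465 CPM in WT and 5538 to 5578 CPM in the deletion, and that of a Leydig list of 17 genes was 955.5 to 1040 and 7978 to 8584 CPM. Spermatid markers went the other way, with 9 genes summing to 18750 to 20420 CPM in WT and 9.53 to 58.1 CPM in the deletion, and 8 meiotic markers summed to 6149 to 6332 and 210.1 to 258.3 CPM. The sum of 8 macrophage markers was 90.1 to 100.9 and 426 to 629 CPM, and that of 7 myoid markers was 624.5 to 647 and 662 to 714 CPM. For 7 interstitial mesenchyme markers it was 221 to 259.1 and 860.5 to 903.2 CPM. For 7 endothelial markers it was 45.23 to 52.15 and 104 to 106 CPM. Summed, 8 spermatogonial markers were at 482.1 to 543.4 and 354 to 418.8 CPM, although 4 of them were called higher and 2 lower. Mitochondrial genes took 5.59% to 6.44% of the counts in WT and 21.6% to 22.7% in the deletion, and their part in the results was not tested. No gene of the marker lists was at 0 in all libraries of a group. In sections of whole tissue, more cells of a type and more RNA per cell cannot be told apart, and the part of these shifts in the results below was not tested beyond the values given against the Sertoli and Leydig lists.

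Hormone subunit and follistatin genes were higher in the deletion with TMM scaling, and the activin receptor genes Acvr1b, Acvr2a and Acvr2b were not. Of the 10 genes, 7 rose (Inha, Inhba, Inhbb, Amh, Amhr2, Fst and Fstl3), 1 fell (Acvr1b) and 2 were not called (Acvr2a and Acvr2b), against the 38.4% of all tested genes that were called higher and 46.1% lower. The deletion libraries lay wholly above WT for the same 7, as for 39.2% of all genes, and wholly below for Acvr1b, as for 46.7%. The median log2 change of the 10 was 2.26, and that of all tested genes was -0.19. All 10 passed the filter on low counts, but Inhba, Amh and Fst passed it only through the deletion libraries, so their difference is partly built into their being tested. Everything said of direction depends on how libraries are scaled. With libraries set to an equal mean level of the Sertoli list, called Sertoli-level scaling here, 2 of the 10 were higher and 3 lower, against 4.48% and 75.6% of all tested genes. With an equal level of the Leydig list (Leydig-level scaling) 0 were higher and 6 lower, against 0.675% and 88% of all tested genes.

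**Figure D1:**
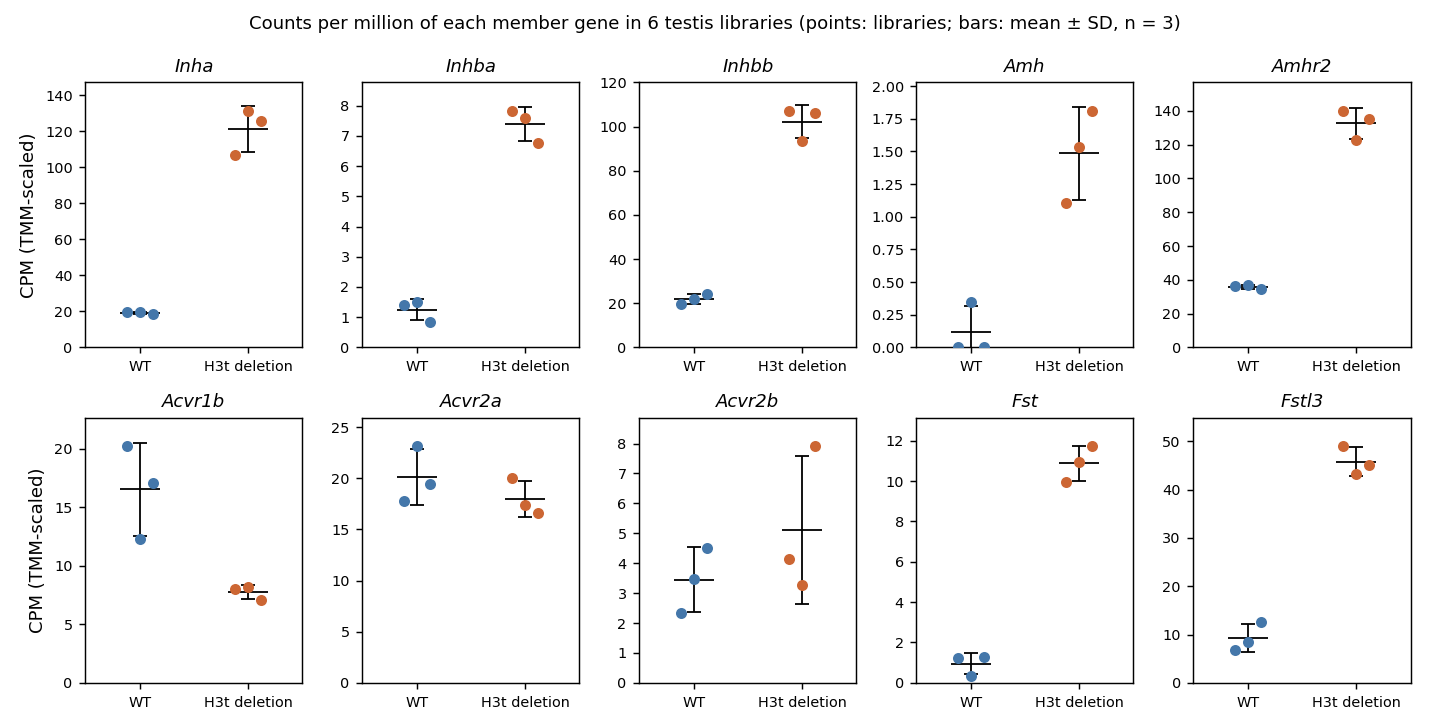
TMM-scaled CPM (vertical axes, each from 0) of the 10 genes in 3 WT and 3 H3t deletion libraries. Points are libraries and bars give the mean ± SD. The groups are apart for 8 genes, with Acvr1b the only one of these that is lower in the deletion, and overlap for Acvr2a and Acvr2b.

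RefSeq promoter windows (GRCm38.p6) matched 8 of the 10 symbols, all but Amh and Fst. The Inha window lies for 160 of its 250 bases in exon 1 as GENCODE M21 annotates it and was set aside. The 250 bases before the start are shown for 3 genes that rose and for the 1 that fell. Inhbb, which also rose, is not shown. Whether CpG content goes with the direction of change was not tested. The sequences are written 5′ to 3′. Capitals mark the SF-1 core site AGGTCA, its extended form CAAGGTCA, and TATAAA, the letters of the TATA box, on either strand. SF-1 is the product of Nr5a1, a gonadal transcription factor. Matches are by letters alone, at any distance from the start.
Amhr2, chr15:102445117-102445366, plus strand: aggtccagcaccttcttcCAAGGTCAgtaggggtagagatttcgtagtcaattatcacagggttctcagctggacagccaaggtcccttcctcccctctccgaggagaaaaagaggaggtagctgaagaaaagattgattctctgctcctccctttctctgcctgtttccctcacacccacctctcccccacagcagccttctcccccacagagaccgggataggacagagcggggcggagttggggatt
Inhba, chr13:16011601-16011850, plus strand: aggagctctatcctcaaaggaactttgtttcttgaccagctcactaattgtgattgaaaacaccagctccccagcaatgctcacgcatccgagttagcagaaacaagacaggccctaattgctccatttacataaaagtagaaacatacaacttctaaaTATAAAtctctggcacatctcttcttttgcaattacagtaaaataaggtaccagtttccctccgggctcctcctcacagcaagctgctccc
Fstl3, chr10:79777024-79777273, plus strand: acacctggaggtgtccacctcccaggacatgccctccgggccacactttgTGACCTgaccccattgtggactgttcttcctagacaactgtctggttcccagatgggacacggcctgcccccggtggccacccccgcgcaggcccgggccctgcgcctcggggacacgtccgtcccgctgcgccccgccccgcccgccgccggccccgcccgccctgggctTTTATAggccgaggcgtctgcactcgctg
Acvr1b, chr15:101173822-101174071, plus strand: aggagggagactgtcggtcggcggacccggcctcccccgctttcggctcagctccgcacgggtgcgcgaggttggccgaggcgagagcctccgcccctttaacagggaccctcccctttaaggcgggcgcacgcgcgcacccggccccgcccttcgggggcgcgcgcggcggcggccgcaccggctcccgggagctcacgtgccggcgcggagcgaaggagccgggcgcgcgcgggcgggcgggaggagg

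The windows of Inhba and Amhr2 held 3 and 5 CpG dinucleotides, where the median of 32851 windows of the same length was 6. Those of Inhbb and Fstl3 held 21 and 22. The windows of the activin receptor genes held 24 (Acvr2b), 42 (Acvr1b) and 49 (Acvr2a). CAAGGTCA was found in the Amhr2 window, as in 1.33% of all windows, and contains the AGGTCA that 14% of all windows hold and that the Fstl3 window holds on the other strand as TGACCT. The TATA box was in the Inhba window and, as TTTATA, in that of Fstl3 (12.4% of all windows). The cyclic AMP response element TGACGTCA, its variant TGCGTCA and the GATA site AGATAA, searched on both strands, were in none of the 7 windows, against 1.55%, 1.75% and 9.99% of all windows. The last 60 bases of the Acvr2b window, 5 of that of Acvr1b and 2 of that of Fstl3 lie in exons as annotated.

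The inhibin alpha subunit gene rose with TMM scaling. Inha (GRCm38 chromosome 1, 75507077 to 75510366, plus strand) stood at 19.8, 19.5 and 18.6 CPM in WT replicates 1, 2 and 3 and at 106.9, 131 and 126 CPM in deletion replicates 1, 2 and 3. The WT libraries lay within a narrow band and every deletion library was far above it. The log2 change was 2.65 with a standard error of 0.12 (adjusted p = 7.67e-12, edgeR). Over the 12 settings that left the cell type lists out, its log2 change ran from 2.48 to 3.29. It was 0.53 at Sertoli level (adjusted p = 0.00366) and -0.29 at Leydig level (adjusted p = 0.0673), so its direction turned only against the Leydig list. Sertoli level is a mean, and tested genes of that list had log2 changes from 0.52 (Tjp1) to 3.97 (Trf) with TMM. Inha lay inside that span. Obsl1, on the other strand 624 bases away, went from 23.8 ± 2.52 to 88.8 ± 13.8 CPM (SD, n = 3).

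Of the beta subunit genes, Inhbb was abundant and Inhba scarce, and both rose. Inhbb (chromosome 1, 119415465 to 119422248, minus strand), the subunit of inhibin B, was at 19.5, 22.1 and 24.3 CPM in the WT replicates and 107, 93.5 and 106.2 CPM in the deletion replicates. Its groups were well apart, with a log2 change of 2.22 ± 0.12 (SE, adjusted p = 7.81e-11, edgeR). Inhba (chromosome 13, 16011851 to 16031621, plus strand), the subunit of inhibin A and activin A, had 9, 13 and 6 counts in WT and 85, 84 and 71 in the deletion, or 1.40, 1.51 and 0.846 against 7.83, 7.60 and 6.77 CPM. The deletion libraries again lay above every WT library, and the log2 change was 2.54 ± 0.36 (SE, adjusted p = 7.68e-06, edgeR). At Sertoli level neither was called (0.11, adjusted p = 0.490, and 0.43, adjusted p = 0.342), and at Leydig level Inhbb was lower (-0.72, adjusted p = 0.000119) and Inhba was at -0.39 (adjusted p = 0.370). A processed pseudogene and an antisense gene that overlap Inhba had 17 and 2 counts over all 6 libraries.

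Per kilobase of exon, a scale on which genes can be set side by side, the alpha subunit outweighed the beta subunits in both groups. Inha was at 13.1 ± 0.416 CPM per kb for WT and 82.3 ± 8.67 for the deletion, Inhbb at 5.15 ± 0.564 and 24 ± 1.79, and Inhba at 0.196 ± 0.0558 and 1.16 ± 0.0873 (SD, n = 3). The ratio of alpha to summed beta was 2.80, 2.44 and 2.16 in WT and 2.74, 3.85 and 3.27 in the deletion, and these ranges overlap (exact two-sided permutation p = 0.2, and 0.333 adjusted over 5 such quantities). Inhbb gave 95.4% to 97.7% of the beta subunit level in WT and 94.9% to 95.9% in the deletion (exact permutation p = 0.4, adjusted 0.4). These quantities were chosen after the values were seen. They describe transcripts and say nothing of the dimers formed.

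Amh stayed close to the detection limit although it was called. Amh (chromosome 10, 80805243 to 80807648, plus strand) had 0, 3 and 0 counts in WT and 12, 17 and 19 in the deletion, or 0, 0.349 and 0 against 1.11, 1.54 and 1.81 CPM. The deletion libraries were higher, yet none held more than 19 counts of the gene. From the summed counts, 3 and 48, the level was 10.9-fold higher in the deletion, with a 95% exact counting interval of 3.52 to 54.8, and the fitted log2 change was 3.35 ± 0.81 (SE, adjusted p = 0.00131, edgeR). All WT counts came from replicate 2, and without it the fitted change was 6.78. At Sertoli level it was 1.33 (adjusted p = 0.207) and at Leydig level 0.51 (adjusted p = 0.631). Sf3a2, a splicing factor gene that ends 318 bases upstream on the same strand, went from 70.6 ± 12.2 to 30.3 ± 2.48 CPM (SD, n = 3), and Jsrp1, 847 bases away on the other strand, at 0.647 ± 0.592 and 5.72 ± 1.04 CPM. Whether reads of these neighbours enter the Amh counts was not tested.

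The AMH receptor gene was abundant where Amh was scarce. Amhr2 (chromosome 15, 102445367 to 102454633, plus strand) was at 36.1, 37.1 and 34.5 CPM in WT and 140, 122 and 135 CPM in the deletion. The WT values were nearly alike and the deletion values all lay above them, with a log2 change of 1.88 ± 0.10 (SE, adjusted p = 7.57e-11, edgeR). This was smaller than the median log2 change of the Sertoli list, 2.24, and of the Leydig list, 3.16. At Sertoli level Amhr2 was at -0.23 (adjusted p = 0.140) and at Leydig level it was lower, at -1.06 (adjusted p = 5.14e-07). Prr13, 4394 bases away on the same strand, went from 5.70 ± 0.889 to 28.6 ± 3.59 CPM (SD, n = 3). Per kilobase of exon Amhr2 had the highest mean of the 10 genes in WT, 17.9 ± 0.642 CPM per kb, and came second to Inha in the deletion, at 66.1 ± 4.56 (SD, n = 3).

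Acvr1b, Acvr2a and Acvr2b did not rise with TMM scaling. Acvr1b (chromosome 15, 101174067 to 101213684, plus strand), the type 1 receptor ALK4, was at 20.2, 12.3 and 17.1 CPM in WT and 8.01, 8.23 and 7.05 CPM in the deletion. The lowest WT library was still above every deletion library, and the log2 change was -1.08 ± 0.22 (SE, adjusted p = 0.000338, edgeR). With no scaling factor it was -0.44 and not called (adjusted p = 0.0764), and with upper-quartile scaling -0.54 (adjusted p = 0.0349).

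The type 2 receptor genes did not separate the groups. Acvr2a (chromosome 2, 48814109 to 48903269, plus strand) was at 17.8, 23.1 and 19.5 CPM in WT and 20.0, 17.4 and 16.6 CPM in the deletion, which overlap. Its log2 change of -0.17 ± 0.17 (SE, adjusted p = 0.368, edgeR) lay 0.02 above the median of all genes, and turned to 0.37 with upper-quartile scaling and 0.47 with no scaling factor, where it was called (adjusted p = 0.0475 and 0.0164). Orc4, on the other strand, overlaps Acvr2a and averaged 40.1 ± 4.69 CPM for WT and 50.5 ± 6.66 for the deletion libraries (SD, n = 3). Acvr2b (chromosome 9, 119402118 to 119434995, plus strand) was scarce, at 2.34, 3.49 and 4.51 CPM in WT and 4.15, 3.26 and 7.91 CPM in the deletion. Deletion replicate 3 stood alone above the others. The log2 change of Acvr2b was 0.56 ± 0.40 (SE, adjusted p = 0.202, edgeR), or 0.10 without that library. With upper-quartile scaling and no scaling factor it was called, at 1.10 (adjusted p = 0.0171) and 1.2 (adjusted p = 0.0104).

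Against the cell type lists Acvr1b, Acvr2a and Acvr2b were lower, as were most genes. At Sertoli level Acvr1b, Acvr2a and Acvr2b had log2 changes of -3.20, -2.28 and -1.54 (adjusted p = 4.59e-10, 3.34e-09 and 0.00198, edgeR), and at Leydig level -4.02, -3.11 and -2.39 (adjusted p = 5.94e-11, 9.92e-11 and 3.63e-05). The medians of all tested genes were -2.30 and -3.13, so Acvr2a lay close to them at both levels, and 75.6% and 88% of all genes were called lower. Per kilobase of exon, Acvr2a and Acvr2b together were at 0.775, 0.913 and 0.784 of the summed beta subunit level in WT and at 0.173, 0.168 and 0.19 in the deletion (exact permutation p = 0.1, the smallest that 3 against 3 allows, and 0.25 adjusted over 5 quantities). This ratio needs no scaling between libraries. The 2 groups were far apart, with a lower summed level of Acvr2a and Acvr2b against the beta subunits in every deletion library. The ratio was chosen after the values were seen, with the beta subunit genes called higher and these receptor genes not. Its separation follows from those calls and adds no separate support to them.

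Both antagonist genes rose, Fst from almost nothing. Fst (chromosome 13, 114452290 to 114458951, minus strand) had 8, 3 and 9 counts in WT and 108, 121 and 123 in the deletion, or 1.25, 0.349 and 1.27 against 9.95, 10.9 and 11.7 CPM. An antisense gene that overlaps Fst had 5 counts over all 6 libraries. The highest WT library of Fst was far below the lowest deletion library, with a log2 change of 3.55 ± 0.38 (SE, adjusted p = 4.20e-07, edgeR). Fst passed the filter on low counts only through the deletion libraries, so its difference is partly built into its being tested. At Sertoli level it remained higher, at 1.45 (adjusted p = 0.00522), and at Leydig level it was 0.62 (adjusted p = 0.195). Fstl3 (chromosome 10, 79777272 to 79782630, plus strand) was at 6.85, 8.49 and 12.6 CPM in WT and 49.0, 43.1 and 45.2 CPM in the deletion. WT replicate 3 was the highest of its group and still far below the deletion, with a log2 change of 2.30 ± 0.19 (SE, adjusted p = 1.60e-08, edgeR). Fstl3 was at 0.20 at Sertoli level (adjusted p = 0.363) and -0.64 at Leydig level (adjusted p = 0.00788).

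Fstl3 remained the more abundant antagonist. Per kilobase of exon its level was 10.3, 45.7 and 18.6 times that of Fst in WT and 9.25, 7.40 and 7.23 times in the deletion. The groups separated, though the WT values rest on 3 to 9 counts of Fst (exact permutation p = 0.1, the smallest possible, and 0.25 adjusted over 5 quantities). The 2 antagonists together were at 0.641, 0.654 and 0.928 of the summed beta subunit level per kilobase in WT and at 0.841, 0.865 and 0.809 in the deletion. Those ranges overlap (exact permutation p = 0.4, adjusted 0.4). Both of these quantities were also chosen after the values were seen.

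The order of the 10 genes by level per kilobase of exon differed between the groups. In WT it ran from Amhr2 and Inha through Inhbb, Fstl3 (3.80 ± 1.2 CPM per kb), Acvr1b (3.74 ± 0.901), Acvr2a (3.54 ± 0.485), Acvr2b (0.877 ± 0.277), Fst (0.208 ± 0.114) and Inhba to Amh (0.0696 ± 0.121, SD, n = 3). Neighbours from Inhbb to Acvr2a overlapped in their libraries, as did Fst, Inhba and Amh. In the deletion Inha came first, followed by Amhr2, Inhbb, Fstl3 (18.7 ± 1.22), Acvr2a (3.16 ± 0.313), Fst (2.37 ± 0.194), Acvr1b (1.76 ± 0.142), Acvr2b (1.30 ± 0.629), Inhba and Amh (0.889 ± 0.213). The last 4 of these overlapped with their neighbours, and the others did not. With the longest transcript as the length, Fst came before Acvr2a in the deletion, at 3.72.

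Within each library the genes could be set against Sertoli genes without any scaling. The log2 level of Inha minus the mean log2 level of the Sertoli list was 0.48, 0.39 and 0.14 in WT and 0.72, 0.94 and 0.89 in the deletion, a difference of 0.51. That of Fst was -3.24, -4.60 and -3.46 against -2.68, -2.62 and -2.51, a difference of 1.16. Every deletion library was above every WT library for these genes. Both are set against the mean of the list, whose own tested genes had TMM log2 changes from 0.52 (Tjp1) to 3.97 (Trf). The differences were 0.10 for Inhbb, 0.22 for Inhba, 0.19 for Fstl3, 0.05 for Amh and -0.24 for Amhr2, and their groups overlapped. For Amh this value rests on the prior count of 2 and was 1.32 with one of 0.5. For Acvr1b, Acvr2a and Acvr2b the differences were -3.17, -2.28 and -1.66, with all deletion libraries below all WT libraries. Where the groups separate completely the exact permutation test (two-sided) gives p = 0.1, the least that 3 libraries a group allow, and 0.2 after adjustment over 30 ratios, so none of these passed 0.05.

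**Figure D2:**
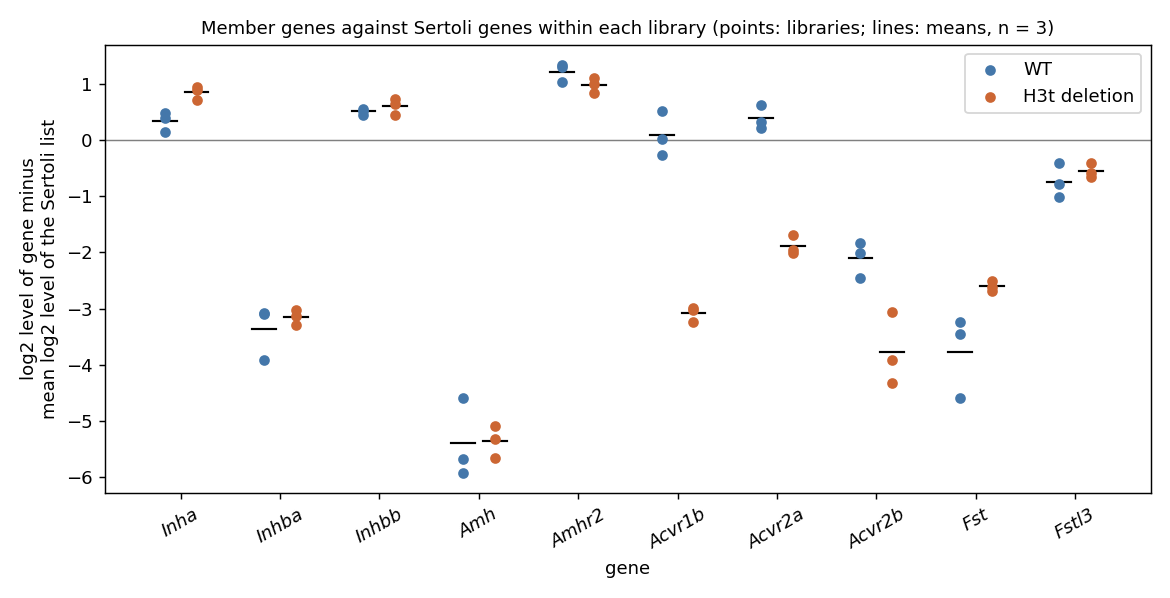
Log2 level of each gene minus the mean log2 level of the Sertoli list in the same library (vertical axis) for WT and H3t deletion libraries. Points are libraries and lines are means of 3. Inha and Fst lie higher in the deletion, Acvr1b, Acvr2a and Acvr2b lie lower, and the groups overlap for the other genes.

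Ratios between the genes overlapped between the groups for all 9 pairs compared. The log2 ratio of Inha to Inhbb averaged -0.18 ± 0.20 (SD, n = 3) for WT and 0.24 ± 0.25 for the deletion libraries (exact permutation p = 0.2), and that of Inha to Inhba was 3.70 ± 0.32 and 4.0 ± 0.23 (exact permutation p = 0.2). That of Inhbb to Inhba was 3.88 ± 0.49 and 3.76 ± 0.17 (exact permutation p = 0.9). Fst against Inhba was at -0.40 ± 1.01 and 0.54 ± 0.22 (exact permutation p = 0.2), and Fstl3 against Inhba at 2.63 ± 0.77 and 2.60 ± 0.12 (exact permutation p = 1). Acvr2a against Acvr2b was at 2.49 ± 0.39 and 1.88 ± 0.72 (exact permutation p = 0.3). The adjusted values over 30 ratios were 0.3, 0.3, 0.931, 0.3, 1 and 0.409 in this order. The other pairs were Fst to Fstl3, with a difference of 0.97, Amh to Inha (-0.47) and Amhr2 to Amh (-0.29), where the last 2 rest on the few counts of Amh. With the prior count of 2, Fst to Fstl3 overlapped, unlike the ratio per kilobase above, which has none. Against the Leydig list, all genes but Fst were lower in every deletion library than in any WT library (exact permutation p = 0.1 each, adjusted 0.2). The differences were -0.32 for Inha, -0.61 for Inhba, -0.74 for Inhbb, -0.79 for Amh, -1.07 for Amhr2, -0.64 for Fstl3, -4.0 for Acvr1b, -3.11 for Acvr2a and -2.50 for Acvr2b. With a prior count of 0.5 that of Amh turned to 0.58. That of Fst was 0.33, and its groups overlapped (exact permutation p = 0.9).

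**Figure D3:**
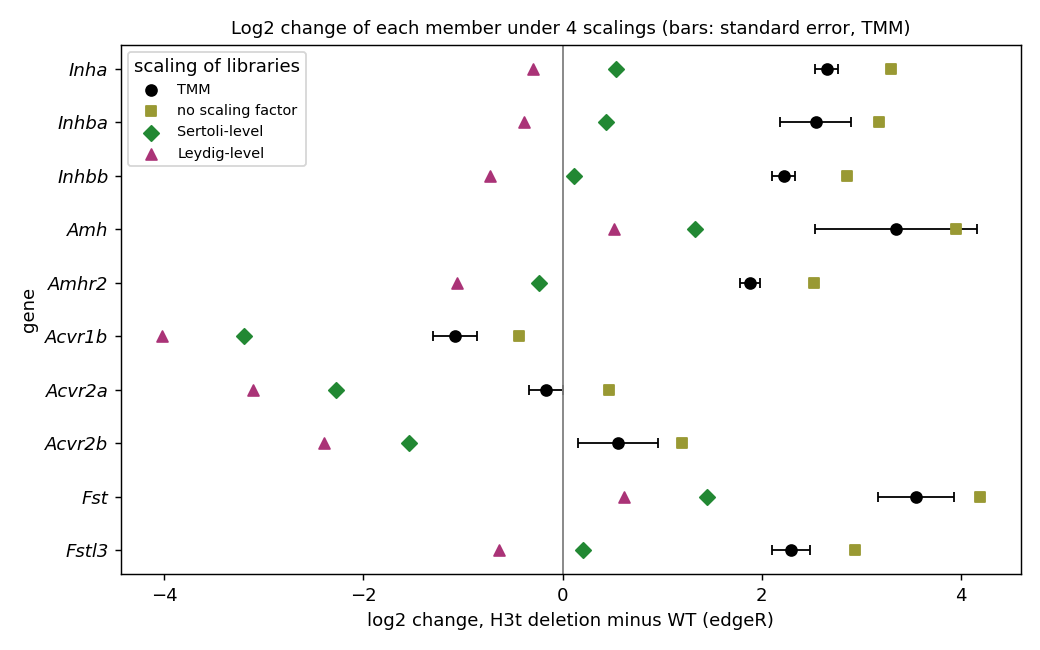
Log2 change of each gene (horizontal axis, deletion minus WT, edgeR) with 4 scalings of the libraries, with standard errors drawn for TMM. TMM and no scaling factor put the subunit, AMH and follistatin genes well above 0, and Sertoli-level scaling brings Inhbb, Amhr2 and Fstl3 close to 0, at 0.11, -0.23 and 0.20.

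The genes whose profiles over the 6 libraries lay closest to these were found by the Euclidean distance of centred log2 CPM among 11255 named genes. Since the groups differ for most genes, this mainly finds genes of the same change. Nearest were Aebp1 and Spon1 to Inha (0.168 and 0.193), Acot13 and Zbtb20 to Inhbb (0.0998 and 0.101), and Smtn and Washc5 to Amhr2 (0.0885 and 0.0933). Nearest to Fstl3 was Defb36 (0.112), which belongs to the Sertoli list, followed by Lasp1 (0.178). Fst had no close match, with Loxl2 and Tbc1d2b at 0.483 and 0.484. Ermp1 and Rrp15 were nearest to Acvr2a (0.114 and 0.138) and Zfp125 and Zbed4 to Acvr1b (0.281 and 0.285).

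Most other genes of the pathway were higher with TMM scaling. Over 7 lists with 91 genes, 67 were tested, 49 rose and 10 fell (38.4% and 46.1% of all tested genes), and their median on the log2 scale was 1.86 where that of all tested genes was -0.19. At Sertoli level 9 were higher and 30 lower (4.48% and 75.6% of all tested genes), and at Leydig level 0 and 49 (0.675% and 88%). The signs that follow cover the genes named below that rose, except Tgfbr3. Smad4, Bmp1, Ski and Gadd45b had log2 changes below 0 at Sertoli level, at -0.92, -0.36, -0.25 and -0.32. These as well as Tgfb3, Acvr1, Acvrl1, Smad3, Smad7, Chrd, Ltbp1, Ltbp3, Pcsk5, Nr5a1, Gata1 and Sox9 were below 0 at Leydig level. Of 19 other ligands 7 were tested, 4 rose and 1 fell. At Sertoli level 2 ligands were higher and 3 lower, and at Leydig level 0 and 5. Bmp4, a bone morphogenetic protein, rose from 0.456 ± 0.416 to 6.03 ± 1.84 CPM, Tgfb2 from 1.91 ± 0.557 to 15.4 ± 3.71 and Tgfb3 from 10.2 ± 2.35 to 54.3 ± 2.79 (SD, n = 3). Gdf9, best known from oocytes, fell from 7.12 ± 0.797 to 0.433 ± 0.0622 CPM. Spermatid markers fell in these testes too, and a link of Gdf9 to them was not tested.

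Most other receptors of the superfamily rose with TMM scaling. Of 13 listed 9 were tested, 8 rose and 0 fell, against 38.4% higher and 46.1% lower among all tested genes. The list's median was 2.46 on the log2 scale (edgeR, TMM). Acvr1, the type 1 receptor ALK2 that serves AMH and bone morphogenetic proteins, rose from 4.24 ± 0.854 to 31.7 ± 1.71 CPM, and Acvr1c, an activin and Nodal receptor, from 0.65 ± 0.625 to 6.05 ± 0.305 (SD, n = 3). Acvrl1, the endothelial receptor ALK1, rose from 1.73 ± 0.232 to 11.3 ± 3.53 CPM. The log2 changes of Acvr1, Acvr1c and Acvrl1 were 2.92, 3.30 and 2.70. Tgfbr3, betaglycan, which helps inhibin to bind type 2 receptors, went from 46.2 ± 13.4 to 256.9 ± 30 CPM, and Tgfbr1, the receptor without a call, was at 57.0 ± 6.19 and 66.4 ± 4.11 CPM. Tgfbr3 and Tgfbr1 were named after their values were seen. At Sertoli level 1 receptor of the list was higher and 2 lower, against 4.48% and 75.6% of all tested genes. At Leydig level 0 were higher and 5 lower, against 0.675% and 88%.

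The genes of SMAD proteins and their partners gave counts near those of all genes. Of 12 tested 5 rose, 4 fell and 3 were not called, against 38.4% higher and 46.1% lower among all tested genes. Their median of -0.14, which stayed there with Foxh1 at its bound, was near the -0.19 of all genes. At Sertoli level 0 of this list were higher and 10 lower, against 4.48% and 75.6% of all tested genes. At Leydig level 0 were higher and 11 lower, against 0.675% and 88%. Smad3 and Smad4, which carry the activin signal, rose by log2 changes of 2.26 and 1.2, and the inhibitory Smad7 by 2.59, while Smad4 was at 1.84 with no scaling factor, -0.92 at Sertoli level (adjusted p = 0.000483) and -1.75 at Leydig level (adjusted p = 3.61e-07, edgeR). Smad6, the other inhibitory SMAD, fell from 12.1 ± 2.78 to 1.05 ± 0.207 CPM (SD, n = 3), and the ubiquitin ligase Smurf1 was at -1.54, or -0.90 with no scaling factor. Foxh1, a partner of SMADs in Nodal and activin signalling, had 123 counts over the WT libraries and 0 in the deletion, at least 61.2-fold lower.

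Extracellular antagonists and processing enzymes were mostly higher with TMM scaling. Of 12 other antagonists and binding proteins 7 were tested, 6 rose and 1 fell, against 38.4% higher and 46.1% lower among all tested genes. Chrd, a binding protein of bone morphogenetic proteins, and the latent transforming growth factor binding proteins Ltbp3 and Ltbp1 were at 2.91, 2.58 and 2.57, and the decoy receptor Bambi at -1.27, or -0.63 with no scaling factor. Of 6 convertases tested 4 rose and 2 fell, against the same shares of all tested genes. Furin, which cleaves many precursors of this superfamily, went from 16.3 ± 1.39 to 131 ± 9.55 CPM (SD, n = 3), Pcsk5 and Bmp1 were at 2.30 and 1.74, and the germ cell convertase Pcsk4 was at -5.95. Pcsk7 was at -0.49, but at 0.052 with upper-quartile scaling and 0.15 with no scaling factor, and its call ended without WT replicate 3 (adjusted p = 0.0569, edgeR). At Sertoli level 2 antagonists were higher and 1 lower, and 1 convertase was higher and 3 lower, against 4.48% and 75.6% of all tested genes. At Leydig level 0 genes of either list were higher, and 3 antagonists and 4 convertases were lower, against 0.675% and 88%.

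Genes that respond to the pathway and genes that control inhibin and AMH were higher with TMM scaling as well. Of 12 tested feedback targets 10 rose and 1 fell, with a median of 1.59, against 38.4% higher and 46.1% lower among all tested genes. At Sertoli level 0 of them were higher and 6 lower, where 4.48% and 75.6% of all tested genes were. Smad7, Ski and Gadd45b were at 2.59, 1.86 and 1.76, and Bambi at -1.27. Of 16 tested regulators 13 rose and 2 fell, with a median of 2.04, and at Sertoli level 3 were higher and 6 lower, against the same shares of all genes. At Leydig level 0 genes of either list were higher, and 9 feedback targets and 13 regulators were lower, against 0.675% and 88%. Nr5a1, which encodes SF-1, went from 34.4 ± 1.78 to 237 ± 16 CPM, Gata1 from 3.78 ± 0.772 to 23.9 ± 1.60 and Sox9, which activates Amh, from 33.5 ± 3.06 to 197 ± 10.4 (SD, n = 3). Crem, whose products act in spermatids, fell from 316 ± 10 to 6.99 ± 1.30 CPM, and Zfpm2, a GATA partner, from 22.1 ± 2.81 to 10.5 ± 2.86. Zfpm2 was not called with no scaling factor (-0.44, adjusted p = 0.0541, edgeR). Of the regulators, 4 (Fshr, Sox9, Wt1 and Gata1) also belong to the Sertoli list.

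**Figure D4:**
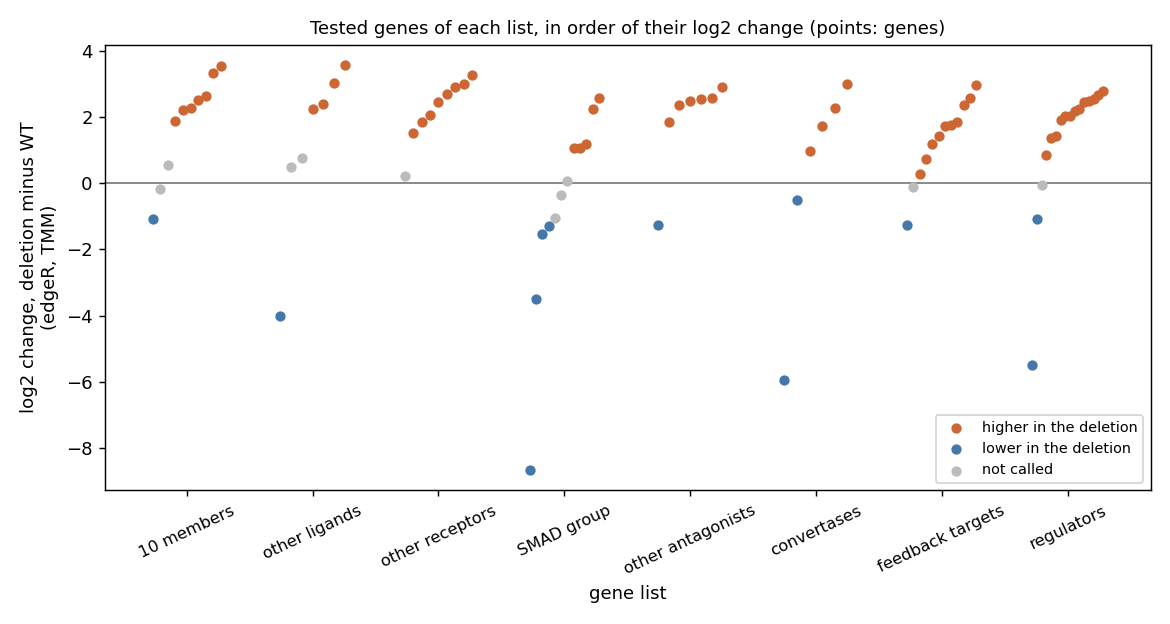
Log2 change (vertical axis, deletion minus WT, edgeR with TMM) of the tested genes of each list, in order of their change, with colours for higher, lower and not called. The 8 other receptors called lie above 1, whereas the SMAD group runs from above 2 to Foxh1, whose fitted value rests on 0 counts in the deletion.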

How the data were processed

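Per the labels' protocols, RNA was taken from cryosections of testis and libraries were made with a stranded SMART-Seq kit. The authors deposited raw counts of reads per gene, made with Trim Galore, HISAT2 and featureCounts on GRCm38, per the submitters' processing notes. The sources used here state no versions, annotation release or strand setting, so genes that overlap on opposite strands cannot be told apart with certainty. No column of sample values was left unused (0), and no pair of replicates agreed within sampling noise (chi-square of 4.48 to 6.88 per degree of freedom).

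The analysis used edgeR 4.0.16 in R 4.3.3: filterByExpr, TMM, the quasi-likelihood test of deletion against WT over all 17038 genes kept, and Benjamini-Hochberg adjustment at 0.05. Standard errors are the log2 change over the square root of the F statistic. Bounds for genes at 0 in a group use a floor of 3 counts over the group. Intervals and floors cover counting error only. Ratios within libraries used a prior count of 2 and exact two-sided permutation tests. The labels do not state separate mice beyond the title numbers, so p-values reflect only how far these samples spread, in part perhaps technically. Alternatives were other scalings and filters, DESeq2 1.42.0, voom from limma 3.58.1, a 1.5-fold threshold test and each library left out. Positions and exon lengths are from GENCODE M21 (GRCm38). At most 0.331% of the 50-mers of any of the 10 genes occur in other genes. The test was checked only on simulated counts in which few genes differed between the groups. In these data 84.5% of all tested genes were called, so that check does not cover how the scaling behaves here.

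The 10 genes and the lists were chosen with earlier results of these data known. Beside the 10, from each list called genes averaging 2 CPM or more are named, up to the 3 largest rises and 3 largest falls. Nearest profiles are the 2 closest for genes averaging 5 CPM or more, and annotated neighbours within 5 kb that were tested are named with their values. Of the overlapping genes without a test, those of Inhba and Fst are given by their counts, and those of Fstl3, Acvr1b and Acvr2b had 0 counts.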

Additional observations from a re-analysis of the deposited data

How the results depend on the processing

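The 7 genes called higher and the 1 called lower stayed at 7 and 1 with median-of-ratios scaling, no filter on low counts, DESeq2, limma voom, a test against a 1.5-fold change and each library left out in turn (range 7 to 7 and 1 to 1). With upper-quartile scaling 9 were higher and 1 lower, beside 8111 and 6609 of all 17038 tested genes. Having no scaling factor gave 9 higher and 0 lower, beside 8378 and 6425 of all tested genes. Sertoli-level scaling gave 2 higher and 3 lower (764 and 12884 of all tested genes), and Leydig-level scaling 0 and 6 (115 and 14996). For the pathway lists together the counts of 49 and 10 became 9 and 30 at Sertoli level and 0 and 49 at Leydig level, and ran from 48 to 51 and from 10 to 11 with a library left out. Under TMM, median-of-ratios, upper-quartile, no factor, Sertoli-level and Leydig-level scaling, in this order, all genes had a median of -0.19, -0.36, 0.35, 0.45, -2.30 and -3.13, and calls of higher made up 45.4%, 42.3%, 55.1%, 56.6%, 5.6% and 0.761% of all calls. These counts follow from the level to which libraries are set.

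Log2 changes turned sign at Leydig level for Inha (-0.29), Inhba (-0.39), Inhbb (-0.72), Amhr2 (-1.06), Acvr2b (-2.39) and Fstl3 (-0.64), at Sertoli level for Amhr2 (-0.23) and Acvr2b (-1.54), and for Acvr2a with upper-quartile scaling (0.37) and no scaling factor (0.47). With a prior count of 0.5 the within-library differences of Amh to Inha, Inhbb to the Sertoli list and Amh to the Leydig list turned from -0.47, 0.10 and -0.79 to 0.92, -0.015 and 0.58. Amh, with 3 WT counts, and Inhba and Fst, with 3 to 13 per WT library, are limited by depth. Leaving out WT replicate 2 moved the change of Amh from 3.35 to 6.78, and leaving out deletion replicate 3 that of Acvr2b from 0.56 to 0.10. Leaving out WT replicate 3 ended 1 of the 2 calls of lower convertases. The groups share no title number, but some title numbers are adjacent across groups, and the labels do not say whether this marks a shared litter or day. A replicate block of adjacent title numbers, chosen after the data were seen, joined WT replicate 1 to deletion replicates 2 and 3 and WT replicate 3 to deletion replicate 1. It left 7 genes higher and 1 lower, gave 48 and 10 for the pathway lists, and moved the change of Amh to 6.66. WT replicate 2, which holds all WT counts of Amh, stood alone in that fit.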

Other observations

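Some genes of the lists were too low to be tested and are given as values, chosen after they were seen. Lefty2, which encodes an inhibitor of Nodal signalling, had 0 counts over the WT libraries and 10, 11 and 10 counts in deletion replicates 1, 2 and 3 (0.956 ± 0.037 CPM, SD, n = 3). Taking 3 counts over the WT libraries as the floor, 0.136 CPM, its level was at least 7.05-fold higher. Tdgf1, the Nodal co-receptor Cripto, had 0, 3 and 4 counts in WT and 8, 26 and 17 in the deletion. Nodal itself had 0 counts in all libraries.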
